A study of Homo sapiens with 5 samples.

Results

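The 10 genes described here encode cadherins and immunoglobulin superfamily adhesion molecules that are studied in melanocytes and melanoma, namely CDH1, CDH2, CDH3, CDH11, CDH13, CDH19, MCAM, L1CAM, ALCAM and NCAM1. They were taken by name and matched to Ensembl identifiers, and all 10 were found among the 31029 genes listed for both cell lines. RNA-seq read counts were available for 2 replicates of 501Mel, a human melanoma line that expresses MITF, and 3 replicates of Hermes 3A, an untransformed human melanocyte line. All 5 libraries came from cells infected with shBPTF lentivirus, which silences the NURF chromatin-remodelling subunit BPTF, and selected with puromycin. Hermes 3A cells were grown with TPA, cholera toxin, stem cell factor and endothelin-1, and 501Mel cells without them, so cell line and medium cannot be told apart. Libraries from control shRNA cells were not analysed here, so no value below is an effect of BPTF silencing. The study used more than 1 shBPTF construct, and the labels do not say which of them gave each library or whether replicates were separate cultures. The p-values therefore measure the spread between these libraries, which may be technical.

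Classical cadherins hold neighbouring cells together by calcium-dependent binding of like molecules, and their cytoplasmic tails bind catenins that connect to actin. In the epidermis E-cadherin (CDH1) and P-cadherin (CDH3) attach melanocytes to keratinocytes, and loss of CDH1 with gain of N-cadherin (CDH2) is a well-known switch in melanoma progression. CDH11 and CDH19 are type II cadherins, of which CDH19 marks Schwann cell precursors and other neural crest derivatives, and CDH13 (T-cadherin) is held in the membrane by a lipid anchor and has no catenin-binding tail. MCAM (CD146, MUC18), L1CAM, ALCAM (CD166) and NCAM1 (CD56) carry immunoglobulin domains and have all been used as markers of melanocytic or neural cells.

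Of these 10 genes, 7 differed between the lines at an adjusted p of 0.05 (edgeR, Benjamini-Hochberg), 6 of them with more RNA in Hermes 3A and 1, MCAM, with more in 501Mel. Of the 6, CDH2 and CDH11 passed the filter on low counts only through Hermes 3A, the line where they were higher. With at least 10 counts required in every library, 5 genes were called, 4 of them higher in Hermes 3A. Over all 17918 genes tested, 48.4% were called, 24.1% as higher in Hermes 3A and 24.3% as higher in 501Mel, so that a call as such is common in this comparison. All 6 genes higher in Hermes 3A were so by 2 or more on the log2 scale, as were 9.91% of all genes tested, and 17.1% were higher there by at least 1 log2 unit. MCAM was higher in 501Mel by 1.45 log2 units, and 17.2% of all genes were higher there by at least 1 log2 unit. L1CAM, CDH2 and CDH1 were 180-fold, 115-fold and 38.9-fold higher in Hermes 3A. CDH3, the cadherin with the most counts, was not called, and its ranges in the lines overlapped. The other genes without a call were CDH13 and NCAM1.

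The RefSeq promoter table (GRCh38.p14) holds windows for 5 of the 10 genes, CDH2, CDH19, MCAM, L1CAM and ALCAM. Shown are the bases before the transcription start of ALCAM and CDH19, with more RNA in Hermes 3A, and of MCAM, with more in 501Mel. The windows of ALCAM and MCAM lie wholly outside annotated exons, and that of CDH19 is shown without its last 48 bases, which do not. CDH2 and L1CAM, the genes with the largest differences of those with a window, are not shown. Both L1CAM windows have 176 of 250 bases in annotated exons, and of the CDH2 windows 1 lies wholly in exons and the bases after the start of the other were not found in an annotated transcript. Capitals mark CACCTG, which is CAGGTG on the other strand, an E-box known to bind the SNAI and ZEB repressors. CATGTG and CACGTG, the E-boxes known for MITF, were also searched on both strands.
ALCAM (chr3:105366659-105366908, plus strand): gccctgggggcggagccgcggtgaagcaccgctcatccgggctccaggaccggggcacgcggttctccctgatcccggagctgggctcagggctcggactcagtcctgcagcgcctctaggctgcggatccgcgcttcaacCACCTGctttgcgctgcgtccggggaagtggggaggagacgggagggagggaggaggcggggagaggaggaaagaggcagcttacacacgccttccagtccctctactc
MCAM (chr11:119317131-119317380, minus strand): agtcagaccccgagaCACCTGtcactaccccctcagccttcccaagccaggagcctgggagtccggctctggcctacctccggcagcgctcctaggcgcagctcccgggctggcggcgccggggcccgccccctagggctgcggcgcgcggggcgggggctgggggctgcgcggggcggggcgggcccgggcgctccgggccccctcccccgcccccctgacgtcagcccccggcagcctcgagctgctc
CDH19 (chr18:66604139-66604340, minus strand): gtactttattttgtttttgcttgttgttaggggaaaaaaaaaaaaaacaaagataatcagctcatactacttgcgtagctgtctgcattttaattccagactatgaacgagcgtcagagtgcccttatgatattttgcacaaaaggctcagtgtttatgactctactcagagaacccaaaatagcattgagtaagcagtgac
The CACCTG of ALCAM begins 109 bases and that of MCAM 235 bases before the start. No other searched E-box was found in the 3 sequences, and none in the windows of CDH2 and L1CAM. The start that RefSeq gives for MCAM lies inside the longer gene span given below, which is from GENCODE 29. Among 34943 promoter windows of 250 bases, 17.5% hold CAGGTG on either strand, 9.45% CATGTG and 6.32% CACGTG. The GC content was 68.8% for ALCAM and 79.6% for MCAM, against 36.6% for the 202 bases of CDH19 and a median of 58.0% over all windows.

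The libraries held between 30073071 and 43032311 counts, at which 3 counts correspond to 0.0697 to 0.0998 CPM, the count scaled to a common library total. Levels are given as TMM-scaled CPM, in which the total is also corrected for composition. Replicate 1 of Hermes 3A stood apart from replicates 2 and 3, with a chi-square per gene of 96.1 and 101 against 21.5 between the latter. Replicates 1 and 2 of 501Mel also differed widely, with a chi-square per gene of 72.9. BPTF, the targeted gene, was at 63.4 and 56.9 CPM in 501Mel and 48.6, 50.7 and 54.8 CPM in Hermes 3A, which without control cells does not check the knockdown. Of 7 melanocytic markers, all were counted in every library. Their summed level was 12261 to 19335 CPM in 501Mel and 31686 to 34740 CPM in Hermes 3A, mostly PMEL and TYRP1. DCT went the other way, at 1030 and 1279 CPM in 501Mel and 7.82 to 13.2 CPM in Hermes 3A. MITF was not called (log2 fold change 0.17, edgeR adjusted p = 0.433). The 4 keratinocyte markers listed for both lines summed to 31.7 to 33.6 CPM in 501Mel and 43.0 to 51.0 CPM in Hermes 3A, nearly all of it KRT10, while KRT1 and KRT5 were listed for neither line and SFN had 1 count in all. The 7 fibroblast markers summed to 4.31 to 18.5 CPM in 501Mel and 83.4 to 192 CPM in Hermes 3A, mostly COL1A2 in Hermes 3A, with DCN at 1 to 7 counts in each library. COL1A1, COL3A1, LUM and PDGFRA had higher means in 501Mel without a call, and COL1A2 and PDGFRB had higher means in Hermes 3A. In 501Mel replicates 1 and 2, COL1A1 had 281 and 28 counts and LUM had 359 and 88. The 4 endothelial markers summed to 0.627 to 0.779 CPM and 9.08 to 13.7 CPM, mostly KDR in Hermes 3A, with TEK at 1 count in all. The part of these markers in the differences below was not tested, and in such bulk samples fewer cells with a transcript and less of it in each cell cannot be told apart.

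CDH1 (ENSG00000039068, E-cadherin) lies on chromosome 16 from 68737225 to 68835548 on the plus strand of GRCh38. It was at 0.336 and 0.961 CPM in the 501Mel replicates, from 15 and 37 counts, and at 16.8, 26.7 and 31.6 CPM in the Hermes 3A replicates. All Hermes 3A libraries lay far above both 501Mel libraries. On the log2 scale the fold change of 501Mel over Hermes 3A was -5.28 (standard error 0.541, adjusted p = 0.00038 by edgeR's quasi-likelihood test). The value was -4.71 without 501Mel replicate 1 and -6.22 without 501Mel replicate 2.

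CDH2 (ENSG00000170558, N-cadherin; chromosome 18, from 27950966 to 28177446, minus strand) was nearly absent from 501Mel, with 12 and 4 counts or 0.269 and 0.104 CPM. In Hermes 3A it was at 30.8, 18.2 and 17.7 CPM. Both switch cadherins thus had more RNA in Hermes 3A, and the groups did not overlap for either. For CDH2 the log2 fold change was -6.85 (standard error 0.528, edgeR adjusted p = 0.000127), but CDH2 passed the filter on low counts only through Hermes 3A. The value was -7.70 without 501Mel replicate 1 and -6.37 without 501Mel replicate 2.

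CDH11 (ENSG00000140937, OB-cadherin, known from osteoblasts and mesenchymal cells; chromosome 16, from 64943753 to 65126112, minus strand) was low in both lines. It had 12 and 2 counts in 501Mel, or 0.269 and 0.052 CPM, the second under the level of 3 counts. In Hermes 3A it was at 5.76 CPM in replicate 1 and 1.85 and 1.98 CPM in replicates 2 and 3. Its log2 fold change was -4.26 (standard error 0.881, edgeR adjusted p = 0.00665), but CDH11 passed the filter on low counts only through Hermes 3A. Single libraries moved the log2 fold change widely, to -5.86 without 501Mel replicate 1, -3.57 without 501Mel replicate 2 and -3.53 without Hermes 3A replicate 1.

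CDH19 (ENSG00000071991; chromosome 18, from 66501083 to 66604138, minus strand) showed the steadiest difference. It was at 41.2 and 38.9 CPM in 501Mel and at 199, 163 and 162 CPM in Hermes 3A, and no library came near those of the other line. Its log2 fold change was -2.12 (standard error 0.16, edgeR adjusted p = 0.000118), a 4.36-fold higher level in Hermes 3A, and it stayed between -2.22 and -2.04 when any library was left out. The promoter shown above for CDH19 is the poorest in GC of those printed.

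CDH3 (ENSG00000062038, P-cadherin) is the upstream neighbour of CDH1 on the same strand of chromosome 16, from 68636189 to 68722616, and its end lies 14608 bases before the start of CDH1. Unlike CDH1, it was abundant in both lines, at 176 and 411 CPM in 501Mel and 180, 394 and 432 CPM in Hermes 3A. The ranges of the lines overlapped almost fully, and replicate 1 was the low library in each line. For CDH3 the log2 fold change was -0.19 (standard error 0.451, edgeR adjusted p = 0.747). The value was 0.28 without 501Mel replicate 1 and -0.94 without 501Mel replicate 2.

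CDH13 (ENSG00000140945; chromosome 16, from 82626803 to 83800640, plus strand) was near the lower end of what these libraries measure. Its counts were 32 and 9 in 501Mel and 8, 41 and 35 in Hermes 3A, or 0.717 and 0.234 CPM against 0.204, 0.985 and 1.18 CPM. The groups overlapped, and a difference was not detectable at this depth and spread (log2 fold change -0.70, standard error 0.809, edgeR adjusted p = 0.501). The value was -1.75 without 501Mel replicate 1 and -0.14 without 501Mel replicate 2, again without a call.

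**Figure D1:**
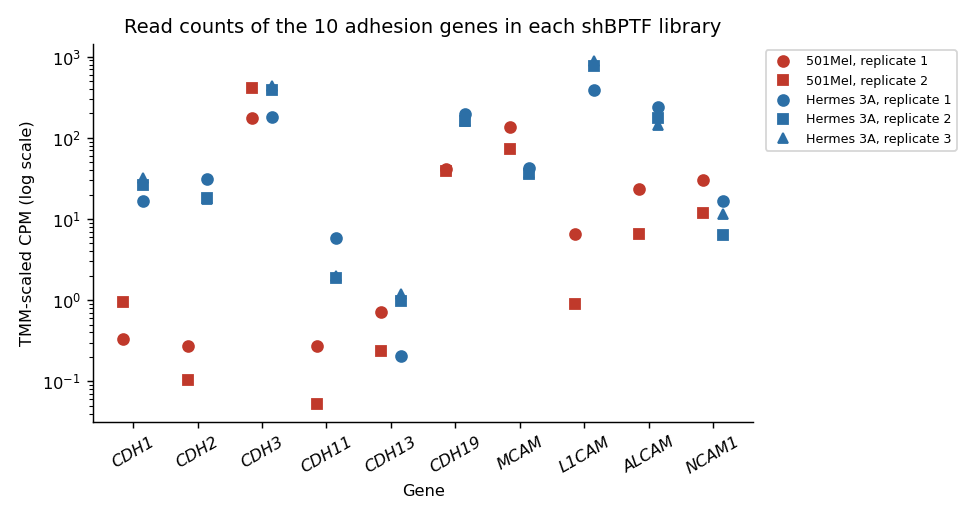
TMM-scaled CPM of the 10 adhesion genes on a log axis, 1 point for each library, with 501Mel in red and Hermes 3A in blue and replicates 1, 2 and 3 as circles, squares and triangles. The colours are apart for CDH1, CDH2, CDH11, CDH19, MCAM, L1CAM and ALCAM and overlap for CDH3, CDH13 and NCAM1.

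Among the immunoglobulin superfamily genes, L1CAM (ENSG00000198910; chromosome X, from 153861514 to 153886174, minus strand), a neuronal adhesion molecule known for its part in axon growth, had the largest difference of the 10. It had 293 and 35 counts in 501Mel, or 6.56 and 0.909 CPM, and 384, 774 and 883 CPM in Hermes 3A, where it was the most abundant of the 10 genes by count. Its log2 fold change was -7.49 (standard error 0.928, edgeR adjusted p = 0.000825), and 251 of the 17918 genes tested had a lower value. The 501Mel replicates differed 7.22-fold, so that the value was -9.56 without 501Mel replicate 1 and -6.71 without replicate 2.

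ALCAM (ENSG00000170017; chromosome 3, from 105366909 to 105576900, plus strand), which binds itself and CD6 on lymphocytes, was at 23.3 and 6.47 CPM in 501Mel. In Hermes 3A it was at 238, 174 and 144 CPM, all well above 501Mel. Its log2 fold change was -3.63 (standard error 0.556, edgeR adjusted p = 0.00195), or 12.4-fold. It was -4.85 without 501Mel replicate 1 and -3.00 without 501Mel replicate 2.

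MCAM (ENSG00000076706; chromosome 11, from 119308529 to 119321521, minus strand), first known as a melanoma antigen and also found in endothelium, was the gene with more RNA in 501Mel. It was at 138 and 73.5 CPM there against 42.7, 35.9 and 37.3 CPM in Hermes 3A, and both 501Mel libraries were above all Hermes 3A libraries. The log2 fold change was 1.45 (standard error 0.254, edgeR adjusted p = 0.00339), a 2.74-fold higher level in 501Mel. It was 0.92 without 501Mel replicate 1 and 1.82 without 501Mel replicate 2, and MCAM was called in both cases. Exons of MCAM share 509 bases with CBL on the opposite strand, and CBL had 2159 to 2772 counts in these libraries. The sources used here do not say whether strand was used in counting, so reads in this overlap could belong to either gene.

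NCAM1 (ENSG00000149294; chromosome 11, from 112961247 to 113278436, plus strand), the neural cell adhesion molecule, was at 30.6 and 11.9 CPM in 501Mel and 16.8, 6.34 and 11.5 CPM in Hermes 3A. The lower 501Mel library lay within the range of Hermes 3A. The log2 fold change of 0.88 (standard error 0.490, edgeR adjusted p = 0.175) did not pass, and it was 0.04 without 501Mel replicate 1 and 1.39 without 501Mel replicate 2.

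The groups did not overlap for the 7 called genes and overlapped for the other 3, where 69.7% of all genes tested had groups that do not overlap. The median log2 fold change of the 10 genes was -2.88, with a median of 0.02 over all genes tested. The filter on low counts kept all 10, but CDH2, CDH11 and CDH13 had fewer than 10 counts in 501Mel replicate 2. Their place in the test thus rests on Hermes 3A, where CDH13 also had only 8 counts in replicate 1. The median is a description only. Without Hermes 3A replicate 1, the library that stood apart, 7 of the genes were again called, with 6 higher in Hermes 3A.

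**Figure D2:**
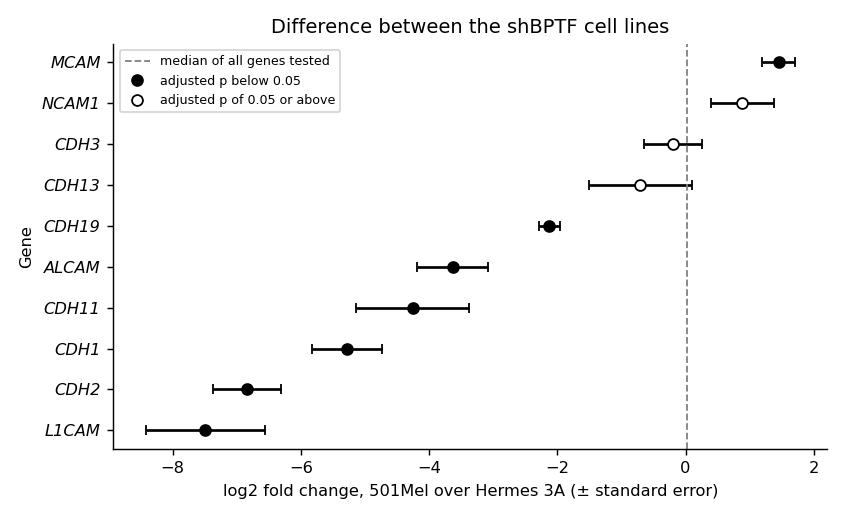
Log2 fold change of 501Mel over Hermes 3A from edgeR for each of the 10 genes, with its standard error. Filled points have an adjusted p below 0.05, open points do not, and the dashed line is the median of all genes tested (0.02). Values run from -7.49 for L1CAM to 1.45 for MCAM.

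Levels of different genes were compared per kb of exon, with the exon union of each gene in GENCODE 29. In 501Mel the order was CDH3 (47.0 CPM per kb), MCAM (14.2), CDH19 (5.83), ALCAM (2.07), NCAM1 (1.67), L1CAM (0.514), CDH1 (0.105), CDH13 (0.0425), CDH2 (0.0377) and CDH11 (0.012). Replicate ranges overlapped between ALCAM and NCAM1, and from each gene to the next along the run from L1CAM to CDH2. The order of such neighbours is not settled, though the range of L1CAM lay above those of CDH13 and CDH2. CDH3, MCAM and CDH19 were apart from each other and from the rest. With the longest coding sequence as the length, the ranges of CDH3 and MCAM overlapped as well.

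In Hermes 3A the order was L1CAM (93.6 CPM per kb), CDH3 (53.8), ALCAM (25.8), CDH19 (25.4), MCAM (5.20), CDH2 (4.49), CDH1 (4.05), NCAM1 (0.906), CDH11 (0.239) and CDH13 (0.0705). Here the ranges of L1CAM, CDH3, ALCAM and CDH19 overlapped from each to the next, as did those of MCAM, CDH2 and CDH1. E-cadherin and N-cadherin RNA were thus not told apart in Hermes 3A.

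CDH3 and CDH19 together made up 99.6% ± 0.199 (SD, n = 2) of the summed level per kb of the 6 cadherins in 501Mel and 89.5% ± 3.05 (SD, n = 3) in Hermes 3A. The share of CDH3 was 86.9% ± 6.95 (SD, n = 2) in 501Mel and 59.1% ± 14.0 (SD, n = 3) in Hermes 3A, and that of CDH19 was 12.7% ± 6.75 in 501Mel and between 23.2% and 43.1% in the Hermes 3A replicates. CDH1 accounted for 0.188% ± 0.0413 in 501Mel and 4.54% ± 0.486 in Hermes 3A, and CDH2 for 0.0936% ± 0.0911 and 5.55% ± 3.23, with 9.27% in Hermes 3A replicate 1. Among the 4 immunoglobulin superfamily genes MCAM held 78.7% ± 6.73 in 501Mel, and L1CAM held 72.5% ± 13.8 in Hermes 3A against 2.32% ± 1.79 in 501Mel. These shares move with the length taken for each gene, and the order of ALCAM and NCAM1 in 501Mel turned when the longest transcript was used.

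**Figure D3:**
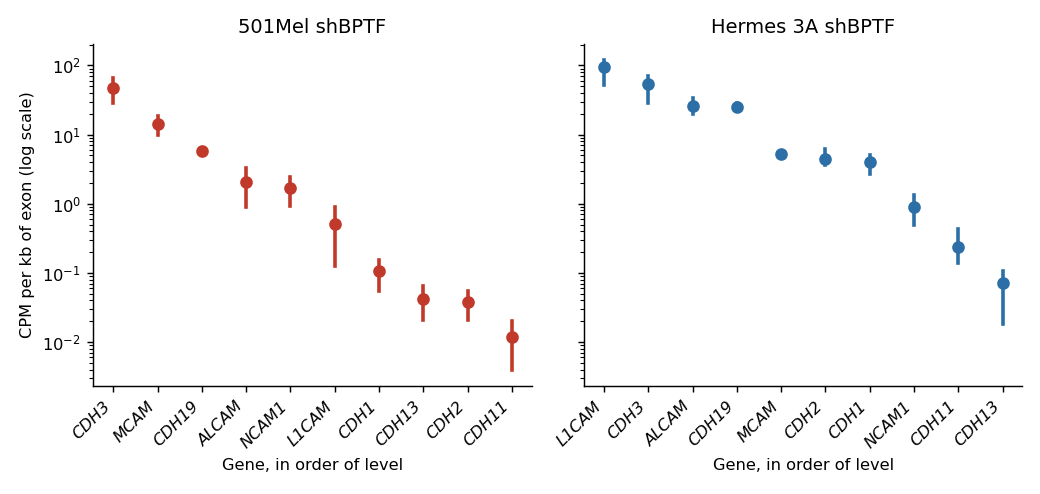
CPM per kb of exon on a log axis for the 10 genes in 501Mel (left) and Hermes 3A (right), each in order of level, with the mean as a point and the range of replicates as a bar. CDH3 leads in 501Mel at 47.0 and L1CAM in Hermes 3A at 93.6 CPM per kb.

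Most of the 10 genes varied more between replicates than other genes of like level, taken as genes whose mean CPM in the same line was within 2-fold. In 501Mel the SD of log2 CPM was above the median of such genes for 9 of the 10, and above 90% of them for 8. In Hermes 3A this was so for 9 and 6 of the 10, but for 8 and 4 of the 10 with CPM by library total, where CDH19 was below the median too. In 501Mel that scale gave the same counts. CDH3 was the clearest case, with an SD of 0.867 in 501Mel and 0.694 in Hermes 3A where genes of like level had medians of 0.133 and 0.154.
L1CAM had the largest SD in 501Mel (2.02) and CDH13 in Hermes 3A (1.39). CDH19 was steady, at 0.0564 in 501Mel and 0.167 in Hermes 3A, and MCAM was steady in Hermes 3A at 0.131 but not in 501Mel at 0.643.

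**Figure D4:**
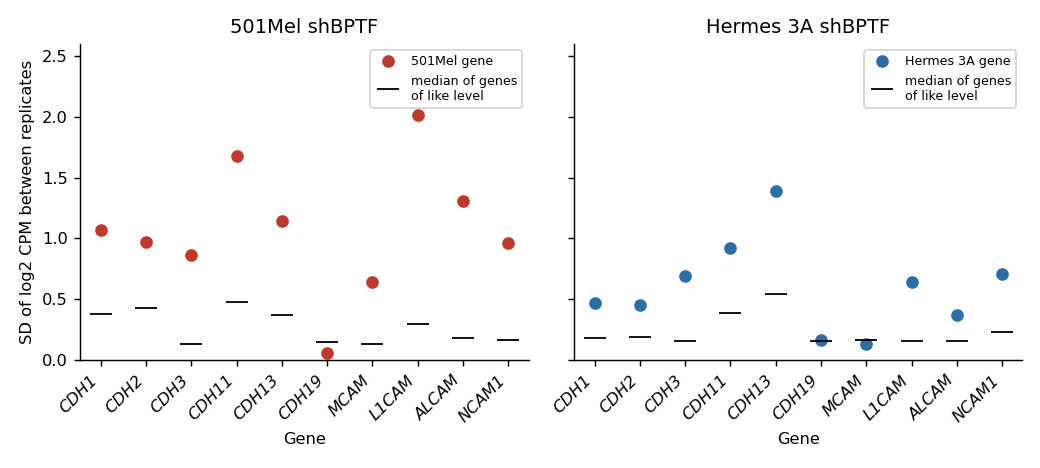
SD of log2 CPM between replicates for each of the 10 genes in 501Mel (left, 2 replicates) and Hermes 3A (right, 3 replicates), as points, with the median SD of genes of like level in the same line as a black dash. On this TMM-scaled CPM the points lie above the dash for 9 of 10 genes in each line, the exceptions being CDH19 in 501Mel and MCAM in Hermes 3A.

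Genes that act with or like these molecules were counted from 6 further lists. Of the 55 genes tested in them, 20 were called as higher in 501Mel and 15 as higher in Hermes 3A, or 63.6% against 48.4% of all genes, and their median log2 fold change was -0.12.

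Of 10 catenins and other partners of the cadherin tail, 5 were higher in 501Mel, 0 were higher in Hermes 3A and 5 did not pass, with a median log2 fold change of 0.46. AFDN (afadin, which links nectins to actin) was at 139 and 175 CPM in 501Mel and 38.2, 39.3 and 40.1 CPM in Hermes 3A (log2 fold change 2.00, edgeR adjusted p = 0.000104). CTNNA2, an alpha-catenin known from neurons, had a log2 fold change of 1.49 (edgeR adjusted p = 0.0143). CTNNB1 (beta-catenin), the list's gene with the most counts, had a log2 fold change of -0.24 and did not pass (edgeR adjusted p = 0.372). The number of called genes fell to 2 without 501Mel replicate 1, where CTNNA2 lost its call, and to 3 without Hermes 3A replicate 3.

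Of 10 other cadherins that passed the filter, 4 were higher in 501Mel and 2 in Hermes 3A. With at least 10 counts required in every library, 1 was higher in 501Mel, since CDH4, CDH12 and CLSTN2 have too few counts in Hermes 3A. CDH7, a type II cadherin of the neural crest, was at 16.5 and 23.1 CPM in 501Mel and 1.02, 2.33 and 1.95 CPM in Hermes 3A (log2 fold change 3.48, edgeR adjusted p = 0.000532). CDH4 (R-cadherin) had 34 and 44 counts in 501Mel and 4, 1 and 1 counts in Hermes 3A (edgeR adjusted p = 0.00238), a ratio of 17.3 (95% exact interval 7.60 to 48.6, counting error only). CLSTN3 and CLSTN1, calsyntenins of the neuronal synapse, had log2 fold changes of -1.71 and -0.50 (edgeR adjusted p = 0.0123 and 0.0325). CLSTN1 had the most counts of the list. CLSTN1 lost its call without 501Mel replicate 1, without Hermes 3A replicate 2 and without Hermes 3A replicate 3, and 1 gene of the list was then higher in Hermes 3A in the former pair of cases. CLSTN3 was at -2.54 without 501Mel replicate 1.

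Desmosomal genes were mostly too low to test, with 4 of 9 listed genes passing the filter. DSP (desmoplakin, which ties desmosomes to intermediate filaments) was 27.5-fold higher in Hermes 3A, at 121, 90.3 and 86.8 CPM against 3.36 and 3.87 CPM (edgeR adjusted p = 2.4e-05). DSC2 (desmocollin) had 399 and 164 counts in 501Mel and 4, 0 and 0 counts in Hermes 3A (edgeR adjusted p = 0.000863), a ratio of 187 (95% exact interval 72.7 to 689, counting error only). All 4 counts are in Hermes 3A replicate 1, the library that stood apart, so the size of this ratio rests on it, and DSC2 passed the filter only through 501Mel. DSG2 had the most counts and did not pass (log2 fold change -0.35, edgeR adjusted p = 0.303). The median log2 fold change of the 4 was -1.41, and 2 of them were higher in Hermes 3A without 501Mel replicate 1.

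Of 19 other immunoglobulin superfamily genes, 7 were higher in 501Mel, 6 were higher in Hermes 3A and 6 did not pass, with a median log2 fold change of -0.12. Among those higher in Hermes 3A, CADM3 and NRCAM passed the filter on low counts only through that line. CEACAM1, known in melanoma progression, was at 70.6 and 146 CPM in 501Mel and 7.01, 4.11 and 4.81 CPM in Hermes 3A (log2 fold change 4.35, edgeR adjusted p = 0.000167, and 3.72 without 501Mel replicate 2), and CNTN1 had a log2 fold change of 3.67 (edgeR adjusted p = 0.000775). NRCAM and NFASC, of the same family as L1CAM, were also higher in Hermes 3A, at log2 fold changes of -3.68 and -3.56 (edgeR adjusted p = 0.0154 and 0.00291). NRCAM had 159 and 9 counts in 501Mel and was at -6.70 without 501Mel replicate 1 and -2.80 without 501Mel replicate 2, and NFASC was at -4.43 without 501Mel replicate 1. CHL1, of that family too and chosen after its value was seen, was higher in 501Mel, with a log2 fold change of 3.25 (edgeR adjusted p = 0.00156) and 3.92 without Hermes 3A replicate 1. JAM3, the list's most counted gene, was at 37.7 and 3.38 CPM in 501Mel and 216, 156 and 167 CPM in Hermes 3A (log2 fold change -3.13, edgeR adjusted p = 0.0208), and its value was -5.74 without 501Mel replicate 1 and -2.27 without 501Mel replicate 2.

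Of 6 transcription factors known to regulate cadherin genes, 2 were higher in 501Mel, 3 were higher in Hermes 3A and 1 did not pass, and 3 in all were called without 501Mel replicate 1, where ZEB1 and TWIST1 lost their calls. With at least 10 counts required in every library, 0 were higher in 501Mel. SNAI1 and ZEB1 passed the filter on low counts only through 501Mel, and TWIST2, 1 of the 3 higher in Hermes 3A, only through Hermes 3A. These genes were not tested under the stricter rule. SNAI1, a repressor of CDH1, was at 5.40 and 2.18 CPM in 501Mel and 0.229, 0.192 and 0.101 CPM in Hermes 3A (log2 fold change 4.39, edgeR adjusted p = 0.00104, and 3.59 without 501Mel replicate 1). SNAI2, a more abundant repressor of CDH1 that was added after its values were seen, differed the other way, with 4789 and 3466 counts in 501Mel and 6477, 7775 and 6228 counts in Hermes 3A (log2 fold change -0.92, edgeR adjusted p = 0.00358). ZEB1 was low in both, with 18 and 15 counts in 501Mel and 0, 2 and 1 counts in Hermes 3A, a ratio of 14.6 (95% exact interval 4.59 to 74.6, counting error only). TWIST2 had 0 counts in both 501Mel libraries and 122, 75 and 85 counts in Hermes 3A, at least 70.7-fold higher there against a floor of 3 counts over the group. TWIST1 had a log2 fold change of -1.27 (edgeR adjusted p = 0.0221), and ZEB2, the list's most counted gene, was at 238 and 196 CPM against 259, 296 and 376 CPM without a call (edgeR adjusted p = 0.0656). The median log2 fold change of the list was -0.72, also with TWIST2 at its bound.

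Of 6 proteases known to shed cadherins or L1CAM, 1 was higher in 501Mel, 3 were higher in Hermes 3A and 2 did not pass, with a median log2 fold change of -0.47. Without 501Mel replicate 2, and likewise without Hermes 3A replicate 2, 0 were higher in 501Mel, ADAM17 having lost its call. ADAM10, which cleaves CDH1, CDH2 and L1CAM at the cell surface, was at 218 and 229 CPM in 501Mel and 203, 244 and 267 CPM in Hermes 3A (log2 fold change -0.09, edgeR adjusted p = 0.665). ADAM17 had a log2 fold change of 0.60 (edgeR adjusted p = 0.0122), and ADAM15 had a log2 fold change of -0.88 (edgeR adjusted p = 0.0047).

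The profiles of the 10 genes over the 5 libraries were compared with each other and with the adhesion genes counted in every library, by the root mean square (RMS) difference of centred log2 CPM, so that each gene was set against 60 others. MCAM was closest to NCAM2, with an RMS difference of 0.152. CDH11 and ALCAM were closest to each other, at 0.528, and so were CDH2 and L1CAM, at 0.976. CDH1 was closest to DSP, at 0.696, and CDH3 to ADAM10, at 0.490. The nearest gene was CLSTN3 for CDH19 (0.520), CDH8 for CDH13 (0.506) and MCAM for NCAM1 (0.482). The 5 points of each profile fall into 2 cell lines, so that a small difference says mainly that the lines differed by like amounts. The 501Mel replicates were not alike in every pair, as with CDH3 (176 and 411 CPM) and ADAM10 (218 and 229 CPM).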

How the data were processed

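The authors deposited raw read counts per Ensembl gene for each library, without normalization. Libraries were made from total RNA depleted of ribosomal RNA and were treated with a duplex-specific nuclease, which lowers abundant sequences, so levels of abundant genes may be compressed. The submitters' processing notes name hg19, CASAVA 1.8, TopHat 1.4.1 and Bowtie 0.12.7, and the counting program, annotation and strand setting are not given in the sources used here. The tables list 37259 genes for 501Mel and 34033 for Hermes 3A. The fit used the 31029 in both, with full library totals, and the genes left out held 0.0938% to 0.712% of counts. Symbols and positions are from GENCODE 29 on GRCh38, another build than hg19, and promoters from RefSeq.

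Counts were compared with edgeR 4.0.16 in R 4.3.3 (TMM, filterByExpr, quasi-likelihood test, Benjamini-Hochberg over all genes), called at an adjusted p of 0.05 and tested on simulated data. Standard errors are the log2 fold change divided by the root of F. Alternatives were DESeq2 1.42.0, RLE factors, library totals, other filters, a replicate block, a 2-fold minimum and each library left out, and, chosen after seeing the data, unlisted genes entered as 0. From each list, the 2 called genes with the largest change in each direction and the most counted gene were named, except 1 gene that is not reported here. The 10 genes and the lists were chosen with earlier results of these data known. Chi-square per gene between replicates was 21.5 or more, so that no libraries were counted as 1 sample.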

Additional observations from a re-analysis of the deposited data

How the results depend on the processing

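The 7 called genes were called, in the same direction, under every alternative in which they were tested, CDH2, CDH11 and CDH13 not being tested with at least 10 counts required in every library. When replicate number entered as a block, 2 of the 10 genes were higher in 501Mel instead of 1, since NCAM1 then passed (log2 fold change 0.89, edgeR adjusted p = 0.0319), and 7496 genes in all were called instead of 8664. Libraries with the same number had correlations of deviations of 0.108 and 0.144 over 13823 genes. The deviations of the 501Mel libraries from their mean mirror each other, so the values for different numbers are the same with the sign turned. They were -0.108 for 501Mel replicate 2 with Hermes 3A replicate 1 and -0.144 for 501Mel replicate 1 with Hermes 3A replicate 2. Only numbers 1 and 2 are shared and nothing in the labels ties them, so these values cannot show whether libraries are paired. The log2 fold change of CDH3 changed sign to 0.013 with the block and lay between -0.94 and 0.28 with each library left out. With each library left out, 6104 to 9282 genes in all were called, 2871 to 4595 of them higher in 501Mel, the fewest without 501Mel replicate 1. Of the 6 further lists, 13 genes instead of 20 were higher in 501Mel with at least 10 counts in every library, and 9 instead of 15 were higher in Hermes 3A with a 2-fold minimum. Both rules admit fewer genes, and the cause was not tested further. The median log2 fold change of all genes moved from 0.02 to 0.14 with DESeq2 and to 0.13 without a filter, with no call among the 10 genes changed. With 2 and 3 libraries a difference in CDH13 or NCAM1 of the size of their standard errors cannot be seen.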

Other observations

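Replicate 1 and replicate 2 differed in the same direction in both cell lines for 8 of the 10 genes, against 55.2% of the 16957 genes tested with counts in every library. CDH2, CDH11, CDH19, MCAM, ALCAM and NCAM1 were higher in replicate 1 of each line, with log2 ratios of replicate 1 over replicate 2 of 0.91 in 501Mel and 0.25 in Hermes 3A for MCAM and of 2.37 and 1.64 for CDH11. CDH1 and CDH3 were lower in replicate 1 of each line, with ratios of -1.23 and -1.13 for CDH3 and of -1.52 and -0.66 for CDH1. L1CAM and CDH13 went opposite ways, with ratios of 2.85 in 501Mel and -1.01 in Hermes 3A for L1CAM and of 1.62 and -2.27 for CDH13. In Hermes 3A, replicate 1 differed from replicate 3 in the same direction as from replicate 2 for each of these genes. The log2 ratio of replicate 1 over replicate 3 was -1.26 for CDH3 and 1.54 for CDH11. The Hermes 3A side thus sets replicate 1, the library that stood apart, against both others. The pattern over both lines was noticed in the data, and the labels do not say what a replicate number stands for.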
